A study of Homo sapiens with 9 samples.

Results

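Collagen genes were taken as the genes whose symbol consists of COL, a number for the collagen type, the letter A and a number for the chain. Of the 63856 genes in the deposited tables, 50 matched this form under 44 distinct symbols. The other 6 were copies of COL11A2 on scaffolds outside the primary chromosomes and had 0 counts in every library, so 44 collagen genes were described. Of these, 33 passed the filter on low counts together with 18452 genes in all, and 11 did not.

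The genes were measured by RNA-seq of total RNA in TCam-2, a cell line from a human testicular seminoma, in 3 groups of 3 samples. In the ESX1 group, ESX1, a homeobox gene on the X chromosome that is active in the testis, was activated with the CRISPRa system: a dead Cas9 fused to the VPR activator under a doxycycline-inducible promoter, together with vectors that carried GFP and gRNAs specific for ESX1. The negative control (NC) was transfected with gRNAs that have no target in human DNA, and the methods do not say in so many words whether it also received the activator. The wild type (WT) had no modification. Transfected cells were kept with puromycin and doxycycline for 72 h before collection, so that WT differs from both other groups in transfection and drugs as well. The ESX1 and NC samples are bulk cultures, and the paper counted only a part of their cells as GFP-positive after selection. A change in fewer cells and a smaller change per cell cannot be told apart.

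Collagens are proteins of the extracellular matrix whose chains wind around each other into a helix. Fibrillar collagens bear tension in connective tissue, type IV collagens form the network of basement membranes, which line the seminiferous tubules in the testis, and other types decorate fibrils, anchor epithelia or span the cell membrane. Most helices hold chains of more than 1 gene, and chains are hydroxylated and glycosylated in the endoplasmic reticulum before export, trimming and crosslinking outside the cell.

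ESX1 itself had 33, 28 and 30 counts in WT, 35, 27 and 34 in NC and 562, 554 and 170 in the ESX1 group, 14.5-fold higher than in NC (log2 fold change 3.85 ± 0.24 SE, edgeR adjusted p = 4.48e-08). Total counts ranged from 5212804 in ESX1 replicate 3 to 10644408 in WT replicate 3. All 10 markers of seminoma and primordial germ cells were measured, with summed levels of 3798 to 4664 normalized CPM in WT, 2868 to 3076 in NC and 1610 to 1955 in the ESX1 group, and 8 of them were called lower in ESX1 than in WT (4.77% of all tested genes were), 1 in ESX1 than in NC (0.699%) and 2 in NC than in WT (2.15%). Of 6 markers of embryonal carcinoma, yolk sac and trophoblast, 2 passed the filter, and AFP was at 0 in all 9 libraries. SOX2 was called higher in NC than in WT (log2 fold change 1.23, edgeR adjusted p = 0.0222). HAND1 was called higher in ESX1 than in WT (1.15, edgeR adjusted p = 0.0279). These 6 markers summed to 3.97 to 15.7 normalized CPM in WT, 15.9 to 21.8 in NC and 17.7 to 23.3 in the ESX1 group. Of 8 fibroblast markers, 2 passed the filter, THY1 and PDGFRA. DCN had 0 counts in every WT library, 2, 0 and 5 in NC and 2, 3 and 4 in the ESX1 group. PRRX1 had counts only in WT replicate 2 (2 counts). The summed level of this list was 16.8 to 21.0 normalized CPM in WT, 6.21 to 8.15 in NC and 4.23 to 4.80 in the ESX1 group. THY1 made up most of it in WT. THY1 was called lower in ESX1 than in WT (log2 fold change -3.33, edgeR adjusted p = 4.39e-07) and than in NC (-1.47, edgeR adjusted p = 0.00981). It was also called lower in NC than in WT (-1.86, edgeR adjusted p = 0.000122). PDGFRA had higher values in ESX1 than in WT without a call (1.06, edgeR adjusted p = 0.236). Of the endothelial, embryonal carcinoma, Sertoli and endodermal markers, between 0 and 1 gene per list was called in any comparison. Each such call was higher: VWF, HAND1 and GATA6 in ESX1 against WT, SOX9 in ESX1 against NC and SOX2 in NC against WT. Of all tested genes, 6.78%, 1.08% and 3.12% were called higher in these comparisons. The part of these markers in the collagen values was not tested. WT replicate 1 stood apart for COL3A1, with 70 counts against 0 and 6 in the other WT libraries, and for LUM, a fibroblast proteoglycan, with 31 counts against 0 and 0.

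Levels of different genes are given as TPM (counts per kilobase of exon, scaled to the same sum in each library), and comparisons between groups as normalized CPM (counts relative to library size, scaled by the TMM method). Collagen genes together took 0.202 to 0.283% of all counts. The highest in WT was COL4A2, at 144 ± 11 TPM (SD, n = 3), followed by COL4A1 at 131 ± 11 TPM, which together encode the common type IV network. COL23A1, a membrane-spanning collagen, came next at 110 ± 12 TPM. In this order each of these neighbours overlapped the next within 1 SD. They were followed by COL18A1, the precursor of endostatin, at 79.2 ± 7.9 TPM, and COL9A3, a chain of the fibril-associated type IX, at 54.0 ± 19 TPM. COL9A3 did not stand beyond its spread from COL26A1 (51.9 ± 3.1 TPM) or from COL1A2 (48.7 ± 15 TPM). In NC the first 3 were COL4A2 (207 ± 15 TPM), COL4A1 (188 ± 1.1 TPM) and COL23A1 (116 ± 4.4 TPM). In the ESX1 group they were COL4A1 (199 ± 22 TPM), COL4A2 (188 ± 25 TPM) and COL18A1 (108 ± 37 TPM), with COL23A1 at 54.7 ± 5.7 TPM.

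**Figure D1:**
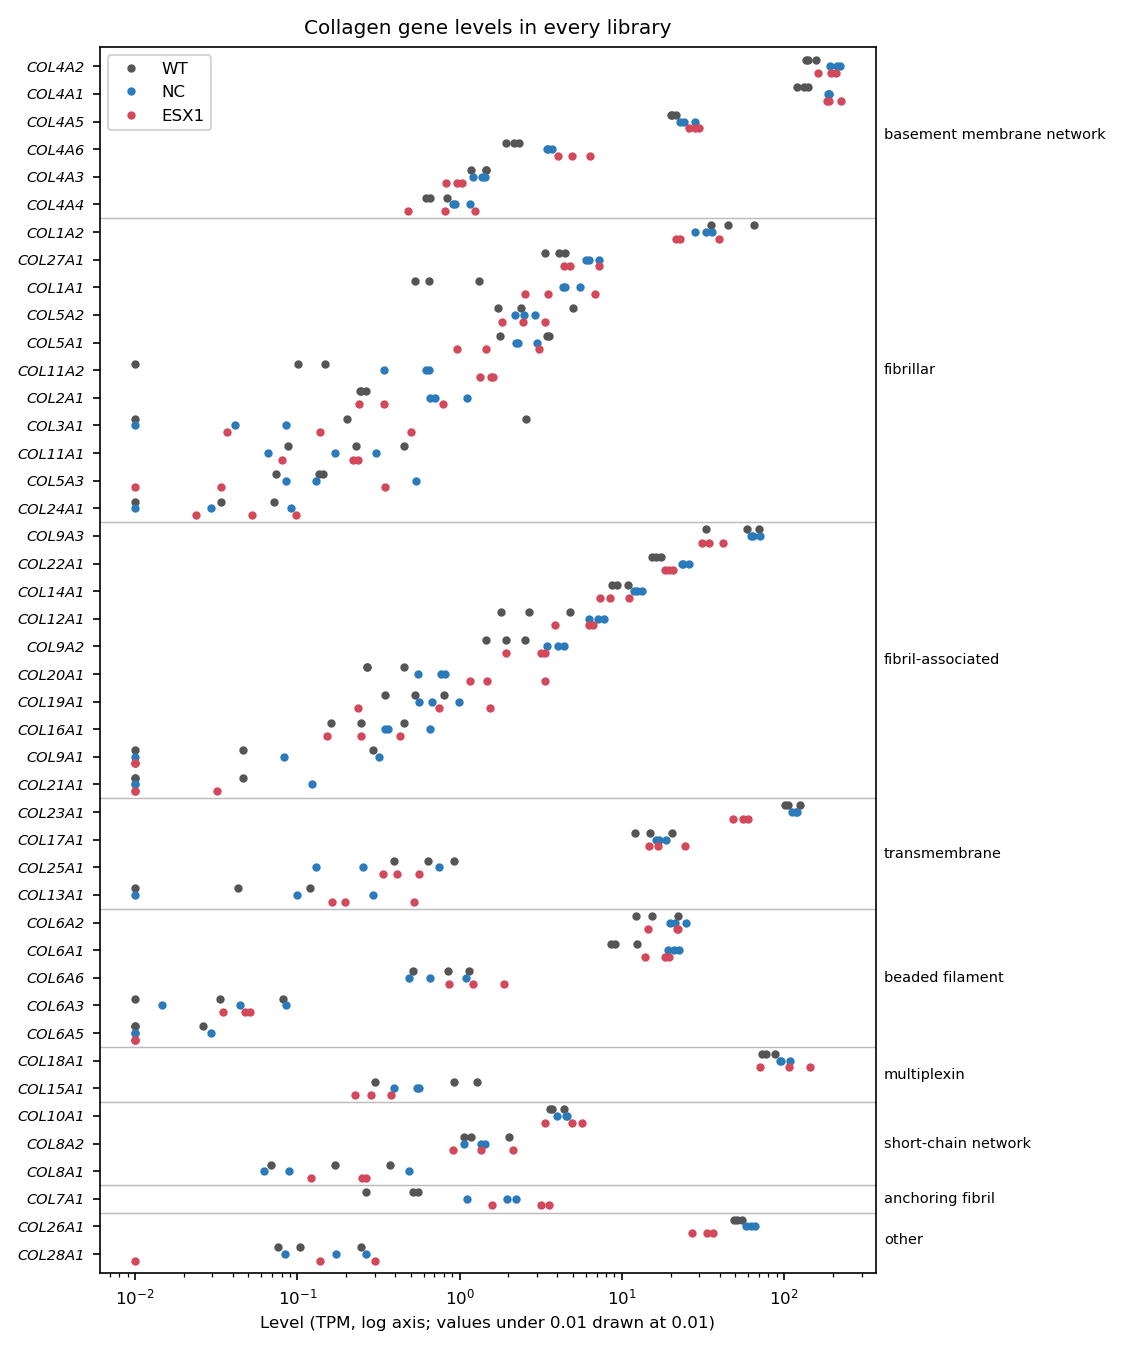
Levels of the 44 collagen genes in TPM (x axis, log scale) in the 9 libraries, by collagen class (labels at the right). Each point is 1 library, grey for WT, blue for NC and red for ESX1; COL4A2, COL4A1, COL23A1 and COL18A1 lie farthest to the right in WT, and the red points of COL23A1 and COL26A1 lie left of all others of their row.

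The 11 untested genes were near the floor. COL3A1, the fibrillar chain of soft tissue, had 70, 0 and 6 counts in WT, 1, 2 and 0 in NC and 15, 1 and 2 in the ESX1 group. COL11A1, COL8A1, COL5A3 and COL13A1 reached at most 17, 16, 13 and 12 counts in any library. COL9A1 reached 9, COL28A1 8, COL6A3 7, COL24A1 and COL21A1 3 each, and COL6A5 1 count. COL9A1 and COL6A5 had 0 counts in all 3 ESX1 libraries. COL3A1 of type III and COL6A3 of type VI were therefore barely detected at this depth, while partner chains of type VI, COL6A1 and COL6A2, were at 9.99 ± 2.1 and 16.6 ± 5.0 TPM in WT.

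A gene was called higher or lower at an edgeR adjusted p below 0.05 and a fold of at least 2. Between ESX1 and WT, 5 of the 33 tested collagen genes were higher (COL1A1, COL4A6, COL7A1, COL11A2 and COL20A1), where 6.78% of all tested genes were, and 2 were lower (COL15A1 and COL23A1), where 4.77% of all were. In either direction this is 7 of 33 beside 11.5% of all genes. COL11A2 passed the filter only through the ESX1 libraries, and COL2A1 and COL16A1 only through the NC libraries. Of the 30 genes without these 3, 4 were higher and 2 lower in ESX1 than in WT, and 2 were higher in NC than in WT. Between ESX1 and NC, 1 was higher, COL20A1, beside 1.08% of all genes higher, 0.699% lower and 1.78% in either direction. None was lower by edgeR, DESeq2 or limma, and 3 had a lower value with an unadjusted edgeR p below 0.05. Between NC and WT, 3 were higher (COL1A1, COL7A1 and COL11A2), beside 3.12% of all genes higher and 5.27% in either direction. None was lower there, where 2.15% of all genes were, nor by DESeq2 or limma, and 1 had a lower value with an unadjusted p below 0.05. COL20A1 was thus the 1 collagen gene called against both controls, where 1.53% of all genes were. The comparisons share samples (the ESX1 libraries in the first 2, the WT libraries in the first and the last), so their lists are given side by side only.

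The median log2 fold change of the 33 genes was 0.15 between ESX1 and WT, 0.02 between ESX1 and NC and 0.08 between NC and WT, beside 0.0066, 0.00044 and 0.0085 for all tested genes. Without a minimum fold, 14 of the 33 had an adjusted p below 0.05 between ESX1 and WT (28.8% of all genes), 4 between ESX1 and NC (4.25%) and 6 between NC and WT (17.1%). All 3 ESX1 libraries lay above all 6 control libraries in 5 of 33 genes (COL4A1, COL4A5, COL4A6, COL11A2 and COL20A1; 6.39% of all genes) and below them in 3 (COL4A3, COL23A1 and COL26A1; 7.21% of all genes). The place of COL11A2 above the controls is a description, because it passed the filter only through the ESX1 libraries.

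**Figure D2:**
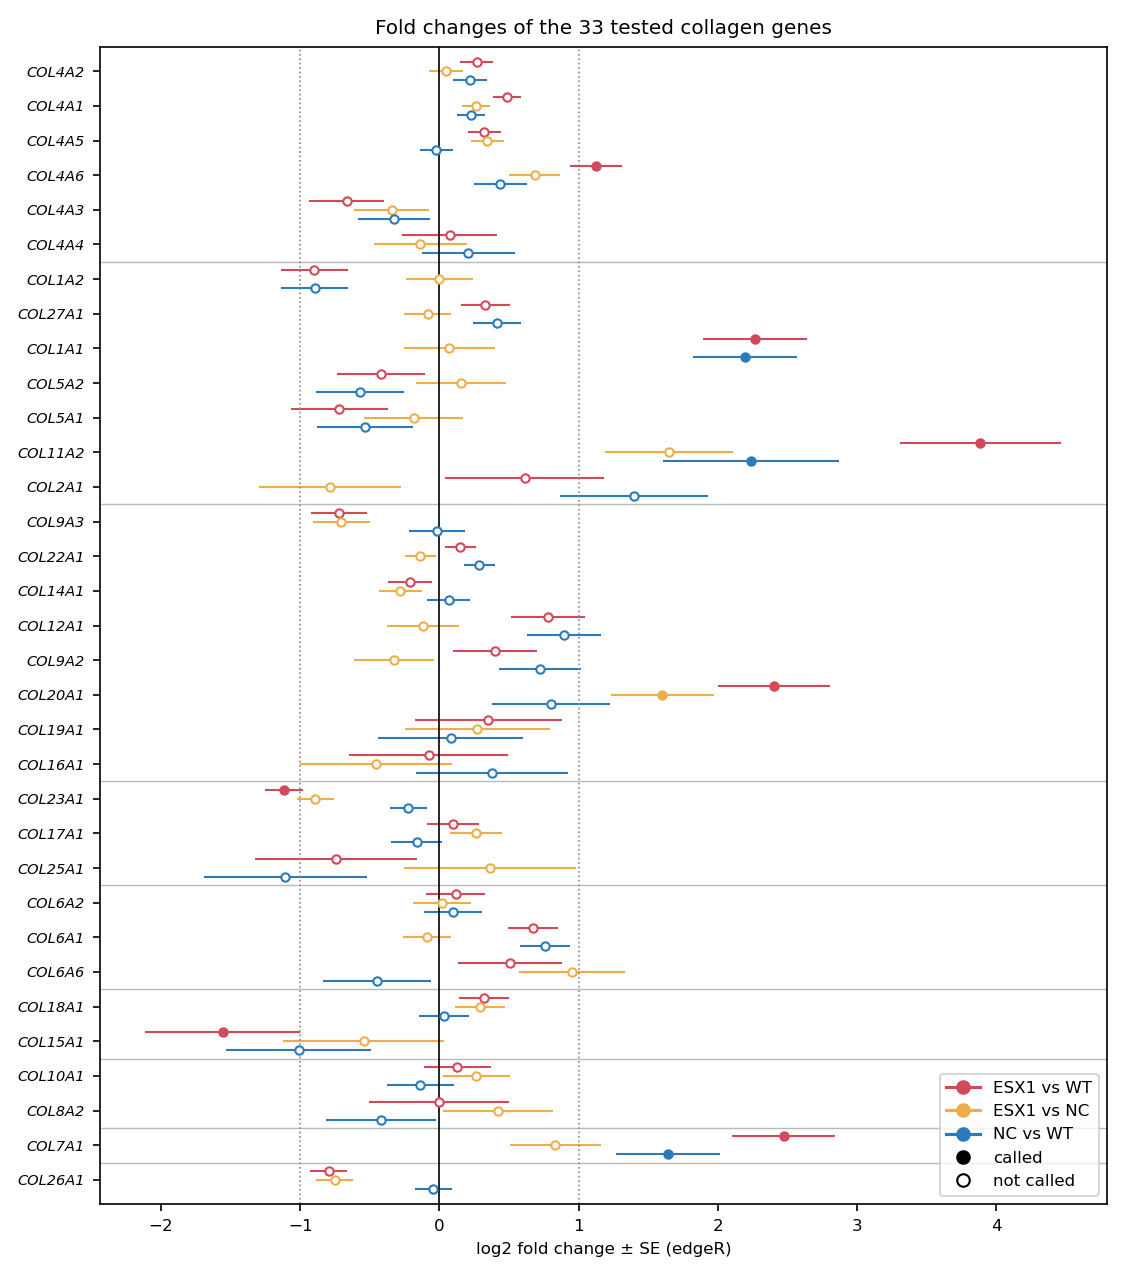
Log2 fold changes of the 33 tested collagen genes (x axis, ± SE from edgeR), by class, in the 3 comparisons. Filled points are called and open points are not, and dotted lines mark a fold of 2; the largest values are those of COL11A2 (3.88), COL7A1 (2.47), COL20A1 (2.40) and COL1A1 (2.27) between ESX1 and WT, and COL1A1 lies near 0 between ESX1 and NC.

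Type IV, the basement membrane network, was the most abundant collagen in every group and made up 40.8% ± 3.1 of the summed collagen TPM in WT, 45.3% ± 0.61 in NC and 52.5% ± 1.5 in the ESX1 group (SD, n = 3). Its 6 genes lie in head-to-head pairs, whose members are read in opposite directions from a shared start region. COL4A1 and COL4A2 lie on chromosome 13 with 126 bases between their RefSeq starts, and COL4A5 and COL4A6 on chromosome X with 379 bases between them. The sequences between the starts are shown because the members of a pair share them (RefSeq, build GRCh38.p14). For COL4A5 and COL4A6 only the 250 bases next to the start of COL4A5 are given. Capitals mark the GC box (GGGCGG), the CCAAT box (CCAAT), the TATA box (TATAAA) or the homeobox core that many homeobox proteins bind (TAATTA), on either strand.
COL4A1/COL4A2 (chr13:110307158-110307283, plus strand): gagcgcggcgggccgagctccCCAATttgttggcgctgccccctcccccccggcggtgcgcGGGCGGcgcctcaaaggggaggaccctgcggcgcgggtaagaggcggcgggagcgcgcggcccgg
COL4A6/COL4A5 (chrX:108439588-108439837, plus strand): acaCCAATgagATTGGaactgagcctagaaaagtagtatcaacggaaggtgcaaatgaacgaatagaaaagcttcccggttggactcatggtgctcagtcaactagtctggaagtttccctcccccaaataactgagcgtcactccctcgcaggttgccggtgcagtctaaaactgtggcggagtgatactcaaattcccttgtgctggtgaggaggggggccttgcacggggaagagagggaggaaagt

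The first stretch is 80.2 percent GC and holds 1 GC box and 1 CCAAT box, and the other is 51.2 percent GC with 2 CCAAT boxes and no GC box. The table of start regions held 44 windows for 32 of the 44 collagen genes. Of its 35116 windows of 250 bases in all, 42.6% hold the GC box, 32% the CCAAT box, 10.7% the TATA box and 4.35% the homeobox core on either strand, beside 24, 12, 8 and 1 of the 44 collagen windows. A match in letters is a description and not a site of binding.

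COL4A1 had 473, 514 and 447 normalized CPM in WT, 567, 565 and 546 in NC and 693, 601 and 718 in the ESX1 group. The 3 groups did not overlap, and the values ran in the order WT, NC and ESX1. The log2 fold change was 0.49 ± 0.10 between ESX1 and WT (edgeR adjusted p = 0.00158), below the 2-fold threshold, and 0.26 ± 0.10 between ESX1 and NC (adjusted p = 0.186). COL4A2 had 515, 548 and 626 normalized CPM in WT, 711, 610 and 646 in NC and 757, 562 and 714 in the ESX1 group. Its groups overlapped, and the log2 fold change was 0.27 ± 0.12 against WT (adjusted p = 0.104) and 0.05 ± 0.12 against NC (adjusted p = 0.904). The ratio of COL4A1 to COL4A2 in TPM was 0.904 in WT, 0.909 in NC and 1.06 in the ESX1 group (geometric means).

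COL4A6, a chain of a network found in specialised basement membranes, had 8.73, 9.62 and 8.25 normalized CPM in WT, 12.0, 11.8 and 12.1 in NC and 16.6, 18.5 and 23.1 in the ESX1 group. No libraries of different groups overlapped. It was called higher in the ESX1 group than in WT (log2 fold change 1.12 ± 0.19, adjusted p = 0.000274), a call lost under a fold of 2 with limma on the deposited log2 values (0.89), and against NC its log2 fold change was 0.69 ± 0.18 (adjusted p = 0.0404), under a fold of 2. COL4A5, its neighbour across the shared start region, had 76.4, 84.2 and 81.7 normalized CPM in WT, 91.1, 77.5 and 70.0 in NC and 101, 106 and 96.6 in the ESX1 group. The ESX1 libraries lay above all controls, with a log2 fold change of 0.32 ± 0.12 against WT (adjusted p = 0.0471) and 0.34 ± 0.12 against NC (adjusted p = 0.119). The ratio of COL4A5 to COL4A6 was 9.69 in WT, 7.01 in NC and 5.57 in the ESX1 group. COL4A3 and COL4A4, the chains of the glomerular network, were low, at 1.36 ± 0.16 and 0.705 ± 0.11 TPM in WT. COL4A3 had 5.79, 4.81 and 6.06 normalized CPM in WT, 4.87, 4.61 and 3.87 in NC and 3.35, 3.52 and 3.69 in the ESX1 group (log2 fold change against WT -0.67 ± 0.27, adjusted p = 0.0728). COL4A4 overlapped between the groups (0.07 ± 0.34 against WT, adjusted p = 0.900).

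Summed over the 6 genes, type IV reached 1083, 1164 and 1171 normalized CPM in WT, 1389, 1272 and 1282 in NC and 1573, 1294 and 1560.2 in the ESX1 group. All 6 libraries of transfected cells lay above the 3 WT libraries, and NC and ESX1 overlapped. Over all 44 collagen genes the sums overlapped, at 2132 to 2621 in WT, 2375 to 2639 in NC and 2152 to 2795 in the ESX1 group.

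Among the fibrillar collagens, COL1A1 of type I was called higher in both transfected groups than in WT, while its partner COL1A2 had lower values under a fold of 2. Type I fibrils are built of helices with COL1A1 and COL1A2 chains. COL1A1 (chromosome 17, 50183289 to 50201632, GRCh38) had 5.68, 2.33 and 2.92 normalized CPM in WT, 20, 15.5 and 15.5 in NC and 29.7, 9.96 and 13.5 in the ESX1 group. Every transfected library lay above every WT library. COL1A1 was called higher in NC than in WT (log2 fold change 2.19 ± 0.37, adjusted p = 0.000708) and in ESX1 than in WT (2.27 ± 0.37, adjusted p = 0.000236). Between ESX1 and NC the log2 fold change was 0.07 ± 0.32 (95% interval -0.56 to 0.71, adjusted p = 0.953), and its sign turned with limma, with the replicate block and without ESX1 replicate 1.

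COL1A2 (chromosome 7, 94394561 to 94431232), the more abundant chain of type I in these libraries, had 173, 226 and 334 normalized CPM in WT, 149, 116 and 129 in NC and 196, 102 and 93.8 in the ESX1 group. NC lay below all WT libraries, and ESX1 replicate 1 lay within the WT range. The log2 fold change was -0.90 ± 0.24 both in ESX1 (adjusted p = 0.01) and in NC (adjusted p = 0.0163) against WT, just under a fold of 2, and -0.00 ± 0.24 between ESX1 and NC. Without WT replicate 1, the library with COL3A1 and LUM counts, COL1A2 was called lower in both (-1.10 for each, adjusted p = 0.00211 and 0.00360). It was also called lower in ESX1 against WT without ESX1 replicate 1 (-1.32, adjusted p = 0.000142). Other fits without 1 library weakened it. The smallest value was -0.61 in both comparisons. The edgeR adjusted p reached 0.0724 in ESX1 and 0.0941 in NC against WT. The TPM ratio of COL1A1 to COL1A2 was 0.0373, 0.0117 and 0.00996 in the WT libraries, 0.153, 0.152 and 0.136 in NC and 0.172, 0.111 and 0.163 in the ESX1 group. The lowest ratio in transfected cells was thus above the highest in WT. The geometric means were 0.0163, 0.147 and 0.146.

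COL11A2, a chain of the thin fibrils of cartilage, had 4, 0 and 3 counts in WT, 15, 15 and 8 in NC and 46, 36 and 23 in the ESX1 group. The 3 groups did not overlap. The gene was tested only because its ESX1 libraries passed the filter, so its ESX1 values had to be high relative to the others and its fold changes are a description. It was called higher in ESX1 than in WT (log2 fold change 3.88 ± 0.58, adjusted p = 9.37e-05) and in NC than in WT (2.24 ± 0.63, adjusted p = 0.0210), and missed the threshold between ESX1 and NC (1.65 ± 0.46, adjusted p = 0.0505). The call between NC and WT was lost without WT replicate 2 (1.78, adjusted p = 0.0708), WT replicate 3 (2.36, adjusted p = 0.0501), NC replicate 1 (2.12, adjusted p = 0.0676) or NC replicate 2 (2.10, adjusted p = 0.0675). The value between ESX1 and NC passed without WT replicate 1 (1.64, adjusted p = 0.0323), 2 (1.64, adjusted p = 0.0297) or 3 (1.64, adjusted p = 0.0409). These were 3 of 9 fits that left out a library, and the edgeR adjusted p reached 0.215 in the others. At 1.5 ± 0.14 TPM in the ESX1 group the gene remained low.

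The remaining fibrillar chains were not called in any comparison. COL5A1 and COL5A2, which make type V and limit fibril width, had log2 fold changes of -0.72 ± 0.35 and -0.42 ± 0.32 between ESX1 and WT (adjusted p = 0.134 and 0.347). COL5A2 had 15.6 normalized CPM in WT replicate 1 against 5.54 and 7.83 in the other WT libraries. COL2A1, the main chain of cartilage, had 0.764, 0.729 and 0.731 normalized CPM in WT, 2.70, 1.72 and 1.53 in NC and 0.710, 0.905 and 2.03 in the ESX1 group (NC against WT 1.40 ± 0.53, adjusted p = 0.0796). The gene was tested only because its NC libraries passed the filter. Its NC values had to be high relative to the others, and its fold change is a description. COL27A1 was at 24.8 ± 3.0, 33.1 ± 3.7 and 31.5 ± 7.3 normalized CPM (SD, n = 3) in WT, NC and ESX1. Its log2 fold change between NC and WT was 0.41 ± 0.17 (SE, edgeR adjusted p = 0.109). As a class, the fibrillar chains made up 8.22% ± 1.1 of the collagen TPM in WT, 5.37% ± 0.35 in NC and 5.56% ± 1.4 in the ESX1 group.

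**Figure D3:**
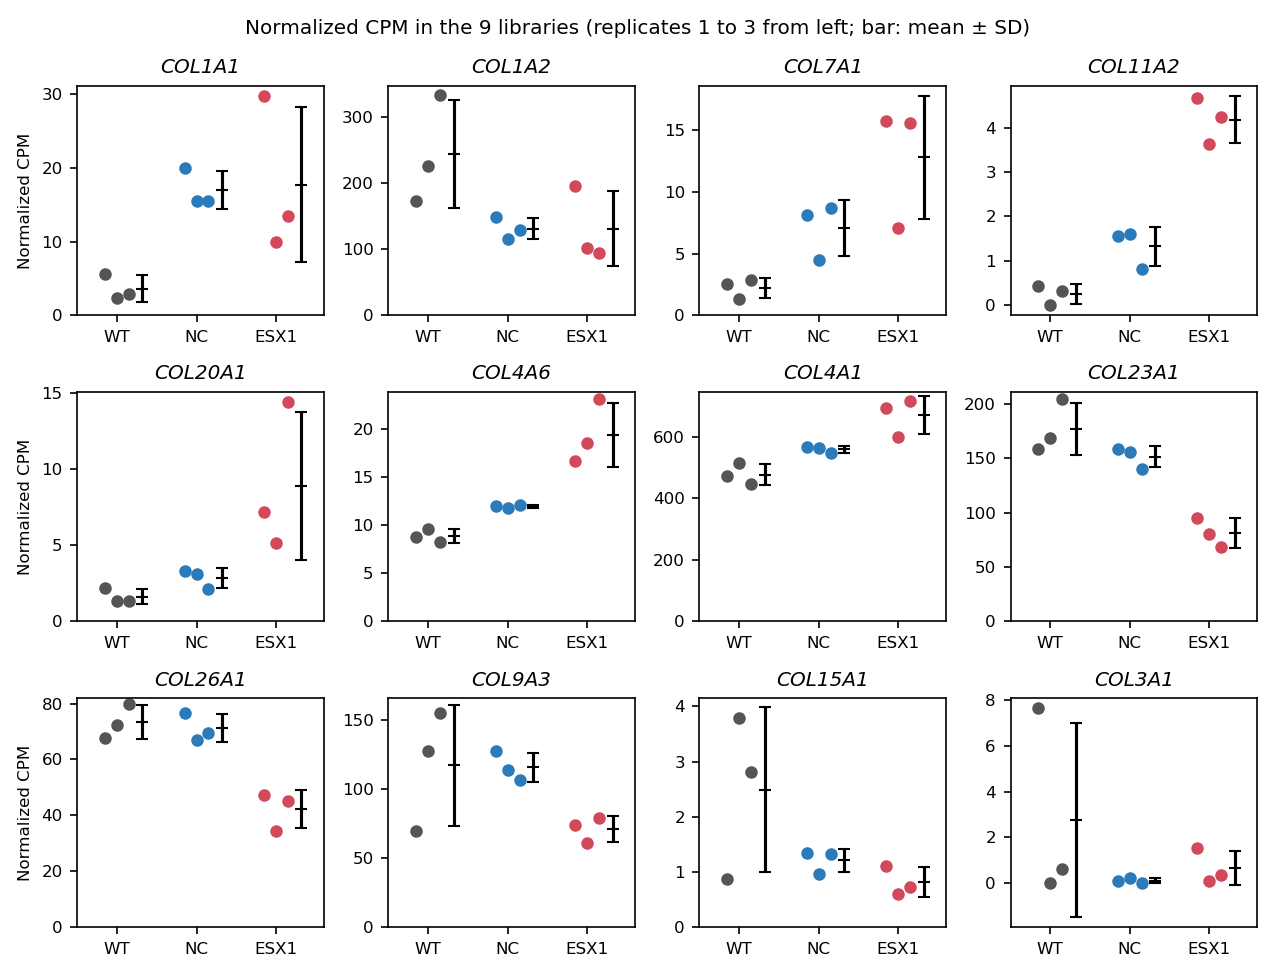
Normalized CPM (y axis) of 12 collagen genes in the 9 libraries, replicates 1 to 3 from left in each group, with the mean ± SD (n = 3) as a bar. COL1A1 is low in WT and overlaps between NC and ESX1, COL23A1 and COL26A1 are low in ESX1 alone, and the COL3A1 panel shows the 1 WT library at 7.64.

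COL7A1, whose protein forms the anchoring fibrils that tie the basement membrane of the skin to the tissue beneath, had 2.51, 1.31 and 2.82 normalized CPM in WT, 8.09, 4.50 and 8.65 in NC and 15.7, 7.04 and 15.5 in the ESX1 group. Both transfected groups lay above WT, and ESX1 replicate 2 lay within the NC range. COL7A1 was called higher in ESX1 than in WT (log2 fold change 2.47 ± 0.37, adjusted p = 9.13e-05) and in NC than in WT (1.64 ± 0.37, adjusted p = 0.00604). Against NC the ESX1 group differed by 0.83 ± 0.32 (adjusted p = 0.191). This passed in 1 of 9 fits that left out a library, the one without ESX1 replicate 2 (1.13, adjusted p = 0.0354). Over the 9 fits the value fell to 0.59, and the edgeR adjusted p reached 0.512.

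COL20A1, a fibril-associated collagen, was the 1 member called against both controls. It had 20, 9 and 13 counts in WT, 32, 29 and 21 in NC and 71, 51 and 78 in the ESX1 group, or 2.18, 1.31 and 1.36, 3.32, 3.11 and 2.14, and 7.20, 5.13 and 14.4 normalized CPM. Each ESX1 library lay above all 6 controls, and ESX1 replicate 3, the shallowest library, was the highest. The log2 fold change was 2.40 ± 0.40 against WT (adjusted p = 0.000265) and 1.6 ± 0.37 against NC (adjusted p = 0.0179). The call against NC was lost without ESX1 replicate 3 (1.12, adjusted p = 0.135), NC replicate 1 (1.73, adjusted p = 0.0508), NC replicate 2 (1.67, adjusted p = 0.0652) or NC replicate 3 (1.44, adjusted p = 0.109).

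Other fibril-associated genes had no call. COL9A3 had 69.4, 128 and 155 normalized CPM in WT, 127, 114 and 107 in NC and 73.8, 60.9 and 79.4 in the ESX1 group. WT replicate 1 lay within the ESX1 range, and all other controls lay above it. The log2 fold change was -0.72 ± 0.20 against WT (adjusted p = 0.0134) and -0.70 ± 0.20 against NC (adjusted p = 0.0600), under a fold of 2. COL12A1, which binds type I fibrils, had 26, 15 and 10.2 normalized CPM in WT, 32.9, 28.6 and 34.1 in NC and 34.7, 33.4 and 19.0 in the ESX1 group. WT replicate 1 was the highest of its group, ESX1 replicate 3 lay within the WT range, and the other transfected libraries lay above it. The log2 fold change was 0.90 ± 0.27 between NC and WT (adjusted p = 0.0277) and 0.78 ± 0.27 between ESX1 and WT (adjusted p = 0.0372). Without WT replicate 1 both were called (1.34, adjusted p = 0.00108, and 1.23, adjusted p = 0.00127), as was the value in ESX1 against WT without ESX1 replicate 3 (1.02, adjusted p = 0.0133). Other fits without 1 library weakened both. Values fell to 0.62 between NC and WT and to 0.50 between ESX1 and WT. The edgeR adjusted p reached 0.117 and 0.161. COL14A1 and COL22A1 differed by at most 0.29 on the log2 scale in any comparison.

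The membrane-spanning COL23A1 (chromosome 5, 178237618 to 178590555) was the most abundant collagen gene that fell. It had 158, 168 and 204 normalized CPM in WT, 158, 155 and 140 in NC and 95.4, 80.8 and 68.2 in the ESX1 group. The ESX1 libraries lay below all controls, while WT and NC overlapped. It was called lower than in WT (log2 fold change -1.11 ± 0.14, adjusted p = 1.21e-05), and against NC its fold stayed under the threshold of 2 (-0.89 ± 0.14, adjusted p = 0.000813). Without ESX1 replicate 3 the call against WT was lost (-0.98, adjusted p = 0.000165), and without ESX1 replicate 1 it was called against NC (-1.02, adjusted p = 0.000353). Its share of the collagen TPM was 14.9% ± 0.51 in WT, 12.4% ± 0.61 in NC and 6.91% ± 1.4 in the ESX1 group. COL17A1, a hemidesmosome protein, differed by at most 0.26 on the log2 scale. COL25A1 had 3 to 27 counts per library and no call.

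COL26A1, a small collagen first described in testis and ovary, had 67.6, 72.4 and 79.7 normalized CPM in WT, 76.7, 67.1 and 69.5 in NC and 47.2, 34.4 and 45.3 in the ESX1 group. All ESX1 libraries lay below all controls, and WT and NC overlapped. The log2 fold changes of -0.80 ± 0.13 against WT (adjusted p = 0.000286) and -0.75 ± 0.13 against NC (adjusted p = 0.00292) were under a fold of 2. COL15A1, a basement membrane collagen of the group that releases endostatin-like fragments, had 8, 26 and 27 counts in WT, 13, 9 and 13 in NC and 11, 6 and 4 in the ESX1 group. WT replicate 1 lay within the range of the transfected cells. It was called lower in ESX1 than in WT (log2 fold change -1.55 ± 0.56, adjusted p = 0.0445), and the call was kept in 1 of 9 fits that left out a library, the one without WT replicate 1 (-1.98). In the other 8 fits the adjusted p was 0.0527 to 0.206. Between NC and WT, COL15A1 had a log2 fold change of -1.01 (edgeR adjusted p = 0.197). It was called lower there in 1 of 9 such fits, the one without WT replicate 1 (-1.43, adjusted p = 0.0412). The edgeR adjusted p reached 0.565 in the others. COL18A1, of the same group, had 270, 294 and 343 normalized CPM in WT, 345, 301 and 282 in NC and 406, 243 and 485 in the ESX1 group (0.32 ± 0.18 against WT, adjusted p = 0.197). Of its exon bases, 16.4% lie in exons of SLC19A1 on the other strand, and the counting command had no strand setting.

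COL7A1 and COL23A1 were called in opposite directions between ESX1 and WT, and their start regions are shown for that reason. The 250 bases before their RefSeq starts are shown, each on the strand of its gene, with the same 4 motifs in capitals.
COL7A1 (chr3:48595330-48595579, minus strand): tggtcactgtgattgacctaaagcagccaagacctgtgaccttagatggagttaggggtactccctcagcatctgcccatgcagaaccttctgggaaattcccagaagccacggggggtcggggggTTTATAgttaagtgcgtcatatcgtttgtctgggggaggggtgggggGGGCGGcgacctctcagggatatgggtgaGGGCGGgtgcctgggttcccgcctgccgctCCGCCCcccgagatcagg
COL23A1 (chr5:178590394-178590643, minus strand): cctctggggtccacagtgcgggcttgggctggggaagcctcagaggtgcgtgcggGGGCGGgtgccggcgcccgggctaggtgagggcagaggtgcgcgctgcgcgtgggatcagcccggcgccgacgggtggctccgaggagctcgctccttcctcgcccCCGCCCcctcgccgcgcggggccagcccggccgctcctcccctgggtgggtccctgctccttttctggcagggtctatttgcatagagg

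The COL7A1 window is 60.8 percent GC, with 3 GC boxes and 1 TATA box read on the other strand, and the COL23A1 window is 74.4 percent GC, with 2 GC boxes. Neither holds a CCAAT box or homeobox core, which says only that these letters are not in the window.

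In type VI, the beaded filament collagen, COL6A1 had 19.9, 21.7 and 30.2 normalized CPM in WT, 44.5, 37.8 and 39.6 in NC and 44, 30 and 40.8 in the ESX1 group. ESX1 replicate 2 lay within the WT range, and all other transfected libraries lay above it. The log2 fold change was 0.76 ± 0.18 between NC and WT (adjusted p = 0.00737) and 0.67 ± 0.18 between ESX1 and WT (adjusted p = 0.00982), under a fold of 2. COL6A2, which joins the same filament, differed by at most 0.12 on the log2 scale in the 3 comparisons. The TPM ratio of COL6A1 to COL6A2 was 0.613 in WT, 0.954 in NC and 0.895 in the ESX1 group. COL6A6 had log2 fold changes of 0.51 ± 0.37 against WT and 0.95 ± 0.38 against NC (adjusted p = 0.333 and 0.206). In the short-chain network collagens, COL10A1 and COL8A2, no value exceeded 0.42 in size on the log2 scale.

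Ratios of partner chains could be tested in 7 of 9 pairs, those with at least 10 counts in every library. Pairs with COL8A1 and COL11A1 could not. With 3 libraries against 3, the exact permutation test (two-sided) cannot give a p below 0.1. Over the 21 tests, 10 gave this smallest value, with a Benjamini-Hochberg adjusted p of 0.21. These were the tests of both transfected groups against WT for COL1A1/COL1A2, COL4A3/COL4A4, COL4A5/COL4A6, COL6A1/COL6A2 and COL9A2/COL9A3. The tests of both groups share the WT libraries. No pair gave this smallest value between ESX1 and NC. Ratios of other gene pairs were not computed, so no share over other pairs stands beside this count.

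**Figure D4:**
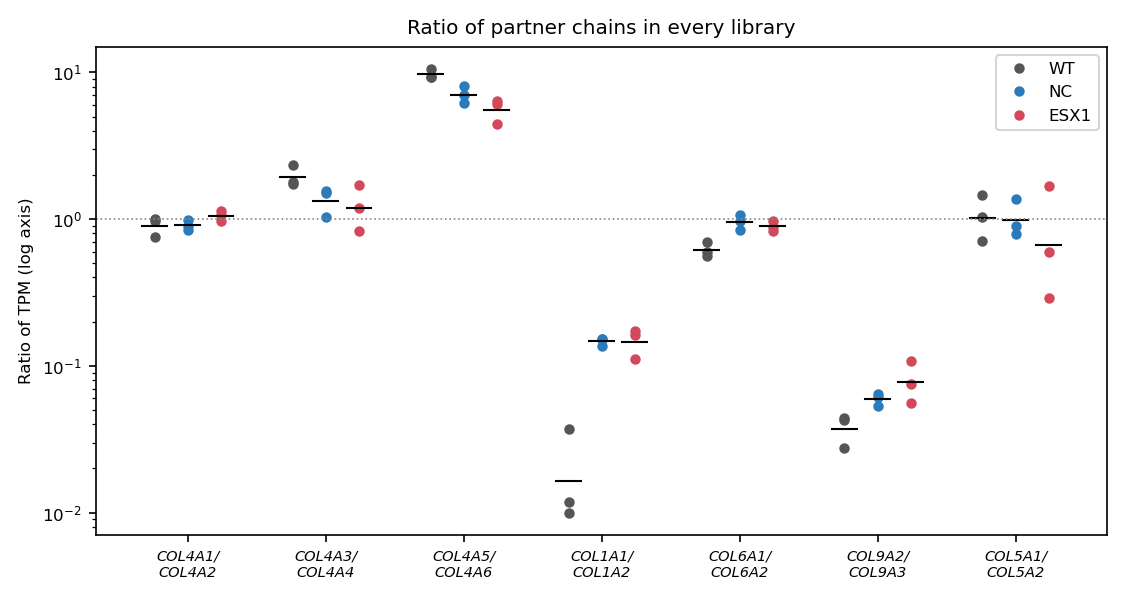
Ratio of the TPM of partner chains (y axis, log scale) in the 9 libraries, for 7 pairs of chains, grey for WT, blue for NC and red for ESX1. Short lines are geometric means of 3 libraries; COL1A1/COL1A2 has means of 0.0163 in WT, 0.147 in NC and 0.146 in ESX1, and COL4A5/COL4A6 9.69, 7.01 and 5.57.

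Of 76 genes that make, move, bind or break collagen, 61 were tested. Among them 14 were called higher and 2 lower in ESX1 than in WT, 8 higher and 1 lower in ESX1 than in NC, and 5 higher and 1 lower in NC than in WT. TLL2 passed the filter only through the ESX1 libraries, and without it 13 were higher in ESX1 than in WT and 7 in ESX1 than in NC. The shares of all genes called are those given above. The median log2 fold changes of the 61 genes were 0.04, 0.11 and 0.06, beside 0.0066, 0.00044 and 0.0085 for all genes.

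Of 19 tested enzymes and chaperones that fold and modify chains in the endoplasmic reticulum, 2 were called. P4HA2, a catalytic subunit of prolyl hydroxylase, had 11.9, 10.1 and 10.4 normalized CPM in WT, 28.2, 21.3 and 26 in NC and 56.8, 36.1 and 29.0 in the ESX1 group. The groups did not overlap, and it was called higher in ESX1 (log2 fold change 1.92, adjusted p = 6.41e-06) and in NC (1.22, adjusted p = 0.00122) than in WT. COLGALT2, which adds galactose to hydroxylysine, had 2.29, 3.79 and 6.16 normalized CPM in WT, 6.22, 5.57 and 7.02 in NC and 17.7, 13.4 and 17.0 in the ESX1 group. It was higher in ESX1 than in WT (1.96, adjusted p = 7.82e-05) and than in NC (1.35, adjusted p = 0.00726), the latter lost without NC replicate 2 (adjusted p = 0.0518). COLGALT1, of the same family, was more abundant and went the other way. It had 178, 204 and 185 normalized CPM in WT, 141, 137 and 133 in NC and 128, 99.3 and 98.8 in the ESX1 group. Its log2 fold change was -0.80 against WT (adjusted p = 0.000105), under a fold of 2, and -0.33 against NC (adjusted p = 0.150). SERPINH1, the collagen chaperone HSP47, differed by -0.32 against WT (adjusted p = 0.0382) and -0.16 against NC (adjusted p = 0.552).

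Of 14 tested genes of export and propeptide trimming, 5 were called against WT. SEC24D, a coat protein of the vesicles that carry procollagen, had 24.1, 16.2 and 14.7 normalized CPM in WT, 30.7, 31.9 and 32.3 in NC and 47.9, 46.0 and 54.7 in the ESX1 group (log2 fold change 1.42 against WT, adjusted p = 1.15e-05, and 0.64 against NC, adjusted p = 0.0355, under a fold of 2). ADAMTS3, a protease that removes amino-terminal propeptides, had 3.71, 4.96 and 2.72 in WT, 7.05, 6.22 and 7.74 in NC and 15.1, 17.4 and 17.4 in the ESX1 group. It was called higher in ESX1 than in WT (2.15, adjusted p = 5.18e-06) and than in NC (1.24, adjusted p = 0.00329) and kept both calls without any 1 library. ADAMTS2, of the same family, was more abundant and went the other way. It had 83.6, 76.8 and 91.1 normalized CPM in WT, 99.5, 89.6 and 95.8 in NC and 51.3, 59.5 and 34.9 in the ESX1 group. Its log2 fold changes of -0.78 against WT (adjusted p = 0.00102) and -0.96 against NC (adjusted p = 0.00117) were under a fold of 2. BMP1, of the same list, was 0.84 above WT on the log2 scale in the ESX1 group (adjusted p = 0.00958), under a fold of 2. It was 0.23 above NC (adjusted p = 0.671). TLL1 and TLL2 are tolloid-like proteases, which remove carboxy-terminal propeptides, and only TLL1 passed the filter without the ESX1 libraries. TLL1 had 27.5, 22.9 and 13.9 normalized CPM in WT, 17.4, 23.6 and 20.1 in NC and 6.29, 10.7 and 10.5 in the ESX1 group, and fell against WT (-1.24, adjusted p = 0.00154) and NC (-1.16, adjusted p = 0.0122). The call against NC was lost without NC replicate 2, NC replicate 3 or ESX1 replicate 1 (adjusted p up to 0.0738). TLL2 had at most 2 counts in any control library and 15, 13 and 8 in the ESX1 group, at least 3.99-fold higher than in WT and at least 4.59-fold higher than in NC when the controls are set to 3 counts per library. It was tested only through the ESX1 libraries, where it is high, so these values are a description. Its call against NC was lost without any 1 NC library or ESX1 replicate 3 (adjusted p up to 0.0949). CTAGE5, a cargo receptor at export sites, was called higher than in WT in ESX1 (1.59, adjusted p = 0.00604) and in NC (1.42, adjusted p = 0.0193), but 42.9% of its exon bases lie in exons of other genes. The call in NC was lost without WT replicate 2 or 3 or NC replicate 2 or 3 (adjusted p up to 0.0832).

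Among 10 tested collagen receptors, 4 were higher in ESX1 than in WT, 2 in ESX1 than in NC and 2 in NC than in WT. DDR2, a receptor tyrosine kinase for fibrillar collagen, had 3, 5 and 4 counts in WT, 40, 17 and 23 in NC and 81, 74 and 32 in the ESX1 group. The groups did not overlap in normalized CPM, and it was called in all 3 comparisons (3.90 between ESX1 and WT, adjusted p = 5.27e-06; 2.52 between NC and WT, adjusted p = 0.00142). Between ESX1 and NC (1.38, adjusted p = 0.0265) the call was lost without NC replicate 2, NC replicate 3, ESX1 replicate 1 or ESX1 replicate 2 (adjusted p up to 0.143). ADGRG1, an adhesion receptor for type III collagen, had 5.79, 5.10 and 4.91 normalized CPM in WT, 5.18, 5.68 and 7.53 in NC and 35.1, 16.6 and 19.6 in the ESX1 group. It was called higher than in WT (2.18, adjusted p = 1.64e-05) and than in NC (1.96, adjusted p = 0.000302) and kept both calls without any 1 library. ITGA11, an integrin subunit for fibrillar collagen, was higher than in WT in ESX1 (2.25, adjusted p = 0.00413) and in NC (2.01, adjusted p = 0.0149), the latter lost without NC replicate 3 (adjusted p = 0.0535). ITGA10 was higher in ESX1 than in WT (1.78, adjusted p = 0.0146), which was lost without ESX1 replicate 3 (adjusted p = 0.0881).

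**Figure D5:**
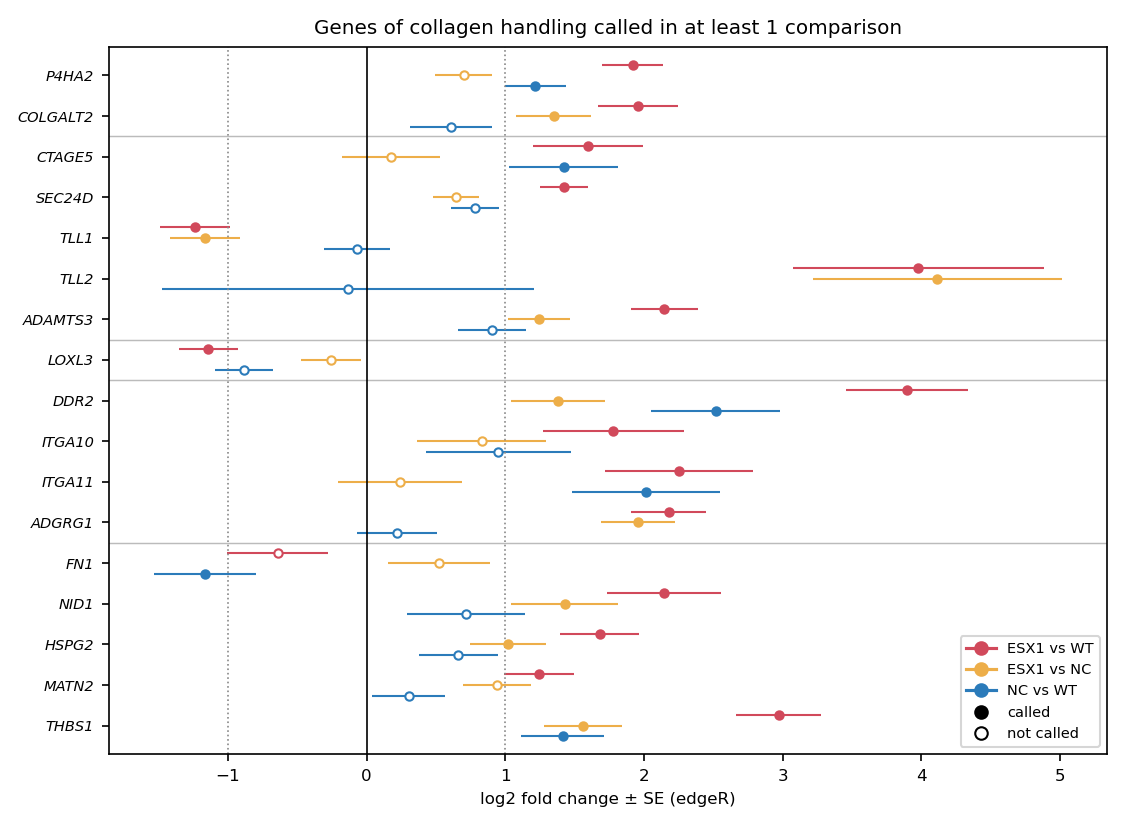
Log2 fold changes (x axis, ± SE from edgeR) of the 17 genes of collagen handling called in at least 1 comparison, by list from folding enzymes at the top to matrix partners at the bottom. Filled points are called and dotted lines mark a fold of 2; TLL1, LOXL3 and FN1 lie to the left of 0 against WT, and ADGRG1 and TLL2 lie near 0 between NC and WT.

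Of 8 tested matrix proteins that bind collagen, 4 were higher in ESX1 than in WT. THBS1, thrombospondin 1, had 22.7, 18.5 and 10 normalized CPM in WT, 48.0, 37.0 and 50.9 in NC and 115, 79.4 and 209 in the ESX1 group. The groups did not overlap, and it was called in all 3 comparisons (2.97, 1.56 and 1.41 for ESX1 against WT, ESX1 against NC and NC against WT; adjusted p = 2.05e-06, 0.00329 and 0.00393), also without any 1 library. NID1 and HSPG2, the nidogen and perlecan that sit beside type IV in basement membranes, were higher in ESX1 than in WT (2.15, adjusted p = 0.000844, and 1.68, adjusted p = 0.000303). Against NC they were called by a narrow margin (1.43, adjusted p = 0.0447, and 1.02, adjusted p = 0.0441). ESX1 replicate 1 was the highest library for both, at 29.1 and 120 normalized CPM against 16.3 and 9.42, and 46.2 and 57.6, in the other 2. Without it the values against NC were 0.92 and 0.48, and neither passed. The NID1 call was also lost without any 1 NC library or ESX1 replicate 2, and the HSPG2 call without any 1 NC library or ESX1 replicate 3 (adjusted p up to 0.221 for NID1 and 0.248 for HSPG2). Both calls against NC were lost with DESeq2. Of the exon bases of HSPG2, 12.0% lie in exons of LDLRAD2. MATN2 was higher in ESX1 than in WT (1.24, adjusted p = 0.00146). FN1, fibronectin, had 223, 98.5 and 98.2 normalized CPM in WT, 58.7, 65.5 and 63.3 in NC and 166, 55.7 and 45.3 in the ESX1 group. It was lower in NC than in WT (-1.17, adjusted p = 0.0374), a call lost without WT replicate 1 (-0.66) or any 1 NC library (adjusted p up to 0.194), and with DESeq2. WT replicate 1 and ESX1 replicate 1 were the highest libraries of their groups for FN1 as for COL3A1 and COL1A1.

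Of 6 tested crosslinking enzymes, LOXL3 was lower in ESX1 than in WT, with 18.8, 21.0 and 27.6 normalized CPM in WT, 12.0, 10.5 and 13.9 in NC and 12.6, 9.66 and 7.94 in the ESX1 group (log2 fold change -1.14, adjusted p = 0.000669). Without WT replicate 3 or ESX1 replicate 3 its fold fell under 2 (smallest -0.97), and 19.3% of its exon bases lie in exons of other genes. Of 4 tested collagen-degrading proteases, MMP2, the gelatinase that cuts denatured collagen and type IV, had a log2 fold change of -0.78 ± 0.16 between ESX1 and NC (adjusted p = 0.00662), under a fold of 2. CTSK, cathepsin K, had log2 fold changes of 0.96 ± 0.19 between NC and WT (adjusted p = 0.00223) and 0.82 ± 0.19 between ESX1 and WT (adjusted p = 0.00402), also under a fold of 2. MMP9 and MMP14 had adjusted p of at least 0.0792 in the 3 comparisons. The 15 untested genes of these lists included the small leucine-rich proteoglycans DCN, BGN, LUM and FMOD and the collagenases MMP1, MMP8 and MMP13.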

How the data were processed

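RNA-seq of total RNA (ribosomal RNA removed, stranded libraries, read pairs) was measured in 9 samples of TCam-2 cells, 3 each of WT, NC and ESX1, grouped by the sample titles. The authors used HISAT2 2.0.5 for alignment to GRCh38 and featureCounts for counts of exonic read pairs. Per the file headers this was version 1.5.2 with GENCODE 26 and no strand option, and the labels give 1.6.5. The deposited counts are not normalized. Values that the authors normalized with DESeq2 were deposited on a log2 scale, with the transformation and version not given in the sources used here. In the joined tables the deposited log2 value never fell as the count rose (0 breaks), and gene symbols came from the log2 table. Exon lengths are those the deposited count table lists.

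The test was edgeR 4.0.16 in R 4.3.3 (filterByExpr, TMM, glmQLFit and glmQLFTest over all 9 samples, Benjamini-Hochberg over 18452 genes). Each SE was the absolute log2 fold change over the square root of F. A call needed both a fold of at least 2 and an adjusted p under 0.05. DESeq2 1.42.0 and limma 3.58.1 were alternatives. TPM was computed from counts and exon length. Replicates are labelled as separate samples, and p-values measure only the spread between them. Start regions came from RefSeq, and figures were drawn with matplotlib.

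The collagen genes, the gene lists and the markers were chosen with earlier results of these data known. The rule for named genes took ESX1, each collagen or list gene called in at least 1 comparison, the 5 collagen genes with the highest TPM in WT, tested partner chains and untested collagen genes. Others were named after their values were seen. On data simulated for ESX1 against NC over 18452 genes with 200 changed, edgeR recovered 89.5% with 2 false calls. Every simulated gene had the same dispersion, and every planted change was above a fold of 2. The recovery of smaller changes, or of genes with a larger spread, was not tested. Total counts per library ranged from 5212804 to 10644408. Alternatives were other scalings, tests, filters, thresholds, samples in the fit, the replicate block, removal of mitochondrial genes, thinning, removal of overlapping genes, and leaving out each library. For the gene lists, DESeq2, the block and leaving out each library were added after the data were seen.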

Additional observations from a re-analysis of the deposited data

How the results depend on the processing

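Counts of collagen genes called (higher and lower in ESX1 against WT 5 and 2, in ESX1 against NC 1 and 0, in NC against WT 3 and 0, against both controls 1) changed as follows, where the cause was not tested unless fewer genes or samples entered. In ESX1 against NC, 2 were higher, and 2 against both controls, with RLE factors, upper-quartile factors, DESeq2, a filter of at least 1 count, only the pair of groups in the fit, or mitochondrial genes removed (COL11A2 was gained). With limma on the deposited log2 values, 0 were higher in ESX1 against NC and 0 against both, and 1 was higher in NC against WT. In ESX1 against WT, 4 were higher (COL4A6 was lost) and 1 lower. COL20A1 in ESX1 against NC was under a fold of 2 there (0.95, limma adjusted p = 0.0192). So were COL7A1 (0.96, limma adjusted p = 0.00893) and COL11A2 (0.72, limma adjusted p = 0.0214) in NC against WT. COL15A1 in ESX1 against WT missed both limits (-0.56, limma adjusted p = 0.0593). With at least 10 counts in every library, which tests fewer genes, the counts were 2 and 1 against WT, 0 against NC, 1 in NC against WT and 0 against both. Lower in ESX1 against WT was 1, without COL15A1, with upper-quartile factors, only the pair in the fit, the replicate block, an adjusted p below 0.01, or thinned libraries. The last 2 also gave 0 higher against NC and 0 against both. The filter of at least 1 count gave 1 lower in NC against WT (COL3A1). With no minimum fold the counts were 9 and 5, 2 and 2, 5 and 1, and 4 against both. Leaving out 1 library gave 5 to 6 higher and 0 to 3 lower in ESX1 against WT, 0 to 2 and 0 to 1 in ESX1 against NC, 2 to 4 and 0 to 2 in NC against WT, and 0 to 2 against both.

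The COL1A1 difference between ESX1 and NC was -0.049 with limma, -0.069 with the replicate block and -0.56 (without ESX1 replicate 1) to 0.37 without 1 library. Upper-quartile scaling shifted all genes by a median of 0.10 (log2) between ESX1 and WT. All other collagen values recomputed kept their direction. Of 31 calls in the gene lists, 20 held without any 1 library, 3 were lost with DESeq2 (HSPG2 and NID1 in ESX1 against NC, FN1 in NC against WT) and 2 with the replicate block (HSPG2 and FN1 in the same comparisons), and 0 reversed.

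Same-numbered replicates deviated together weakly or not at all (correlations -0.030 to 0.193, highest with its own number in 1 or 2 of 3). With 3 libraries per group this cannot decide whether same-numbered samples were handled together, and the main test did not pair them. The replicate block moved no other count of collagen genes by over 1.5 times. It gave 2109, 358 and 1003 genes called over all genes, beside 2131, 328 and 973. Genes under about 10 counts per library, 11 collagen genes among them, could not be compared at this depth, and ESX1 replicate 3 has the fewest counts.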
